A study of Mus musculus with 20 samples.

Results

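The neutrophil primary granule genes Mpo, Elane, Prtn3, Ctsg and Ms4a3 were followed across 4 sorted blood populations of female mice that were wild type, heterozygous or homozygous for an Xist deletion in blood cells. They are 5 of the 19938 genes that could be named on the array, and all 5 were among the 11670 genes bright enough to be tested. The 5 genes were chosen by symbol, with their homozygous and heterozygous differences on these same arrays already known. Those differences are therefore given below as descriptions with no test.

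Primary granules, also called azurophilic granules, are filled at the promyelocyte stage of neutrophil development, and transcription of their main cargo stops as the cells mature. The cargo is a heme peroxidase and a set of serine proteases with which neutrophils kill and digest microbes. Stem and early progenitor cells can carry low amounts of the same transcripts before they commit to the granulocyte lineage, which is often called myeloid priming. Mpo encodes myeloperoxidase, which makes hypochlorous acid. Elane, Prtn3 and Ctsg encode the serine proteases neutrophil elastase, proteinase 3 and cathepsin G. Ms4a3 encodes a membrane-spanning protein of granulocyte and monocyte progenitors and is no granule protease itself.

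The mice carried a conditional Xist allele that was removed by Vav-Cre, whose Vav1 promoter is active throughout blood cells. Xist is the noncoding RNA that silences the inactive X chromosome. B220+ B lymphocytes, CD11b+ myeloid cells, stem cells labelled LSK+CD34- and Ter119+ erythroid cells were each measured on 5 arrays. These were wild type (2lox/+) at 2 and 6 months, heterozygous (2lox/-) at 2 and 6 months, and homozygous (-/-) at 12 months. The animals called wild type thus carried a floxed allele too. Each combination of cell type, genotype and age was 1 array, 20 in all, so no combination has a replicate. The background of heterozygous and homozygous samples is labelled as a cross of 129Sv/Jae with B6.Cg-Tg (Vav1-cre)A2Kio/J. That of wild-type samples is labelled 129Sv/Jae alone, apart from the 2-month erythroid sample, which bears the crossed label. For homozygous animals, which had an age of their own, age cannot be told apart from genotype, and for nearly all samples background cannot be told apart from genotype. The labels place the source in bone or spleen without saying which for a given sample. They leave unsaid whether populations of equal genotype and age shared a donor mouse, so p-values measure only the spread between these arrays.

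Xist lay between 9.82 and 11.18 on wild-type arrays, between 7.85 and 9.80 on heterozygous arrays and between 4.66 and 5.20 on homozygous arrays (log2 level). Several arrays held RNA typical of other populations. The B cell receptor gene Cd79a read 10.28 and 10.44 on the 2- and 6-month wild-type erythroid arrays and 10.28 on the 2-month heterozygous one, against 8.21 on the 6-month heterozygous and 8.69 on the homozygous one. Slc4a1, the band 3 protein of red cells, ran from 7.39 to 12.02 on erythroid arrays. The precursor B cell gene Vpreb1 read 11.58 and 10.50 on the B cell arrays of heterozygotes at 6 months and homozygotes and no more than 6.83 on the other 3. Cd34 was bright on stem cell arrays, from 10.53 to 10.89, although the sort label is CD34-, and read at most 5.90 elsewhere. The label names a surface protein and the array measures RNA. The 9 progenitor and multilineage markers were bright on these arrays too. They averaged 9.32 and 9.455 in wild type, 9.71 and 9.26 in heterozygotes and 9.40 in homozygotes. Stem cells below means cells of that sort label, and the part of progenitors among them was not tested.

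The 5 genes lie at 4 places in the genome, and their promoters are shown as a description of the genes. Each line gives 250 bases before and 50 bases after the annotated start, read from the 5′ end on the gene's own strand (RefSeq, build GRCm38.p6). Capitals mark matches, on either strand, to short motifs of the factors C/EBP (TTNNGCAA), PU.1 (GAGGAA) and RUNX (TGNGGT). Elane and Prtn3 are direct neighbours on chromosome 10, so they share their surroundings and are not independent members. The windows are chr11:87793534-87793833 on the plus strand for Mpo, chr10:79886062-79886361 on the plus strand for Elane, chr10:79879417-79879716 on the plus strand for Prtn3, chr14:56102525-56102824 on the minus strand for Ctsg and chr19:11640802-11641101 on the minus strand for Ms4a3.
Mpo: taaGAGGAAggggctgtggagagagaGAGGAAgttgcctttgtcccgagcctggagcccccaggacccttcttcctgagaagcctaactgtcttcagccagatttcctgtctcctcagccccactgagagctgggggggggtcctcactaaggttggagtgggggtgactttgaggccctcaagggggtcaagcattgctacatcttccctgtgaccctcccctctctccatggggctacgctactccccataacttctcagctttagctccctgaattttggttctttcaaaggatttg
Elane: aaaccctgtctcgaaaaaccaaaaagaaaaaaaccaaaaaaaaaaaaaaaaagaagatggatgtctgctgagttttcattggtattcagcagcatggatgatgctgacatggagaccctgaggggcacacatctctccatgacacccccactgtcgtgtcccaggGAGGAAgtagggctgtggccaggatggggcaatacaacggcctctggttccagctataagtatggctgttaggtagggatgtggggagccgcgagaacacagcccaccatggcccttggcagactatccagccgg
Prtn3: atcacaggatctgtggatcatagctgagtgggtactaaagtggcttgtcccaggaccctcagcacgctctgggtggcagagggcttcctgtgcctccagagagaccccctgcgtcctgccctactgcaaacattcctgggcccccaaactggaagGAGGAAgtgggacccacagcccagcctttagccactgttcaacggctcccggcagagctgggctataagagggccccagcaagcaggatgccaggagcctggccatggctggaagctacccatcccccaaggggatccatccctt
Ctsg: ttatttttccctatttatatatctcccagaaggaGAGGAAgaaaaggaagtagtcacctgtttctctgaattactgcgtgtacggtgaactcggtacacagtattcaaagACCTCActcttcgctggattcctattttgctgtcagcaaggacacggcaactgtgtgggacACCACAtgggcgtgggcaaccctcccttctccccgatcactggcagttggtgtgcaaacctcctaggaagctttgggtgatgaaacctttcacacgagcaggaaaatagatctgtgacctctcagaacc
Ms4a3: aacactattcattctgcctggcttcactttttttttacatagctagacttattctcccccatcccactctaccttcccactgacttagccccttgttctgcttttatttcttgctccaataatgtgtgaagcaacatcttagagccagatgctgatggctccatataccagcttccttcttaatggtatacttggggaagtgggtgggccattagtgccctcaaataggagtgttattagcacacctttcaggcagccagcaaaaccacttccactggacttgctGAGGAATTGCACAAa

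All 5 promoters held GAGGAA, the core bound by PU.1, which 28.3% of 32851 mouse promoter windows of this length also hold. The Mpo window had 2 copies and the other 4 windows had 1 each. Elane and Prtn3 carried theirs at similar distances, beginning at positions -85 and -95 from the start. In Ms4a3 it began at position 36 of the transcript and abutted TTGCACAA, the only C/EBP match among the 5 (10.8% of all windows hold one). Ctsg alone had RUNX matches, 2 of them, against 45.8% of all windows. The MYB core AACNG was in 4 of 5, all but Ms4a3, but also in 80.3% of all windows, and it is left in lower case. These matches describe letters only, and the arrays say nothing of factor binding.

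**Figure D1:**
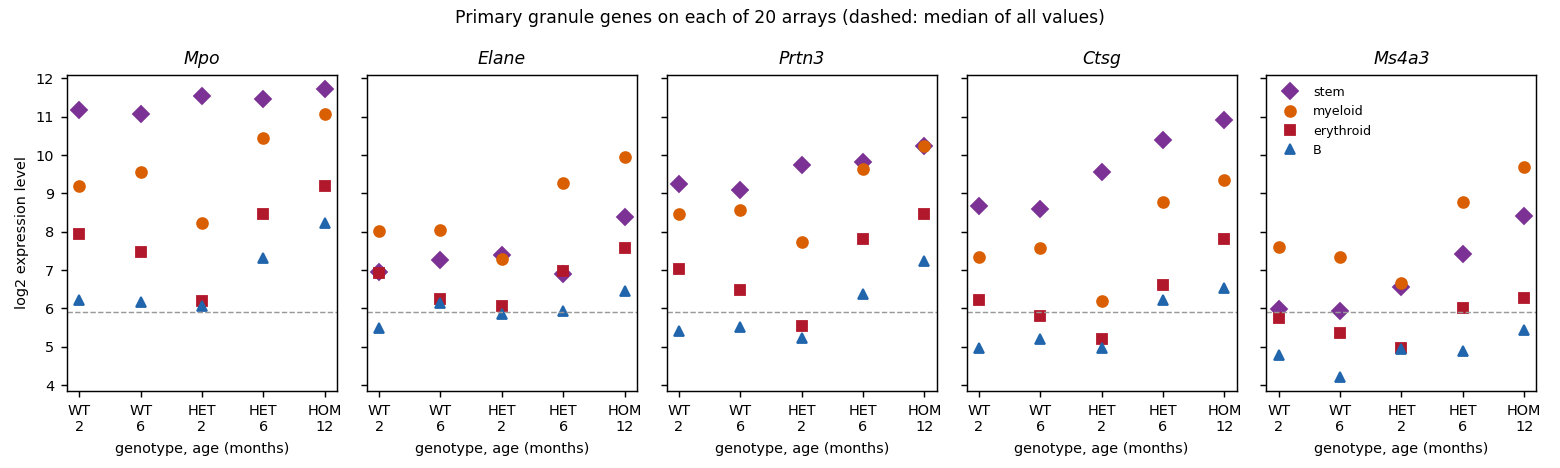
Log2 expression level (vertical axis) of each gene on all 20 arrays, by genotype and age in months (horizontal axis). Points are single arrays, coloured by sorted population, and the dashed line is the median of all values, 5.92. The homozygous array is the highest of its cell type for all 5 genes.

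Levels are given per gene, since the probe sets of different genes are not comparable in brightness. Mpo was brightest in stem cells, at 11.18 (2 months) and 11.08 (6 months) in wild type, 11.53 (2 months) and 11.47 (6 months) in heterozygotes and 11.72 in homozygotes. In myeloid cells it read 9.19 and 9.55 in wild type, 8.23 and 10.44 in heterozygotes and 11.08 in homozygotes, in the same order of ages. Erythroid arrays gave 7.95, 7.47, 6.19, 8.47 and 9.18 and B cell arrays 6.23, 6.18, 6.07, 7.33 and 8.24, listed from wild type through heterozygotes to homozygotes with the younger age first. Myeloperoxidase RNA thus varied least among stem cell arrays (SD 0.264, n = 5) and much more among myeloid (SD 1.11), erythroid (SD 1.13) and B cell arrays (SD 0.948).

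Elane was brightest in myeloid cells. Its myeloid levels were 8.03 and 8.06 in wild type, 7.29 and 9.28 in heterozygotes and 9.96 in homozygotes. Stem cells gave 6.95 and 7.26, 7.38 and 6.90, and 8.38 for the same groups. Elastase RNA in heterozygous stem cells differed from the wild type of the same age by 0.43 at 2 months and -0.36 at 6 months, while the homozygous array lay above all others. Erythroid arrays read 6.92, 6.24, 6.06, 6.96 and 7.57 and B cell arrays 5.50, 6.15, 5.86, 5.94 and 6.46, in the order used for Mpo.

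Prtn3 was bright in both stem and myeloid cells. Its stem cell levels were 9.24 and 9.08 in wild type, 9.75 and 9.82 in heterozygotes and 10.22 in homozygotes. On myeloid arrays it read 8.47 and 8.58, 7.73 and 9.63, and 10.23. The 3 mutant stem cell arrays lay above both wild-type ones, whereas among myeloid arrays the 2-month heterozygote lay below them. Erythroid levels were 7.02, 6.48, 5.53, 7.82 and 8.46 and B cell levels 5.40, 5.52, 5.23, 6.37 and 7.24.

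Ctsg was highest in stem cells, with 8.67 and 8.60 in wild type, 9.56 and 10.38 in heterozygotes and 10.91 in homozygotes. Myeloid levels were 7.35 and 7.58, 6.20 and 8.79, and 9.36. Cathepsin G showed the widest gap between wild-type and mutant stem cells of the 3 proteases. Erythroid arrays read 6.23, 5.81, 5.21, 6.60 and 7.81. B cell arrays read 4.96, 5.21, 4.96, 6.22 and 6.54, mostly below the array-wide median of 5.92, where RMA can compress differences.

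Ms4a3 was highest in myeloid cells, at 7.60 and 7.34 in wild type, 6.67 and 8.78 in heterozygotes and 9.68 in homozygotes. In stem cells it lay near the array-wide median in wild type, at 5.99 and 5.94, and read 6.56 and 7.43 in heterozygotes and 8.42 in homozygotes. Elsewhere it was dim, with 5.74, 5.36, 4.98, 6.01 and 6.26 on erythroid arrays and 4.78, 4.21, 4.93, 4.90 and 5.43 on B cell arrays. Of these 10 arrays, the homozygous and the 6-month heterozygous erythroid ones lay above the array-wide median.

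The sorted populations were compared by limma over all 20 arrays with age and genotype as a block, a contrast that did not choose the genes. In stem minus myeloid cells the 5 genes split. Mpo was higher in stem cells by 1.70 (log2, SE 0.303, limma adjusted p = 0.00019), Ctsg by 1.77 (SE 0.260, adjusted p = 3.0e-05) and Prtn3 by 0.69 (SE 0.250, adjusted p = 0.027). Elane was lower in stem cells, at -1.15 (SE 0.276, limma adjusted p = 0.0022), and so was Ms4a3, at -1.14 (SE 0.289, adjusted p = 0.0032). The share of all tested genes called was 30.7% higher and 23.7% lower, so a call in itself says little. The neighbours Elane and Prtn3 were called in opposite directions. The Prtn3 call was lost when the 2-month heterozygous arrays were left out (0.37, limma adjusted p = 0.054), and also without the wild-type arrays at 2 months (0.68, adjusted p = 0.083) or at 6 months (0.74, adjusted p = 0.062). The other 4 calls held with each age and genotype combination left out.

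Myeloid arrays were higher than the mean of B and erythroid arrays for all 5 genes, against 18.5% of all tested genes. Ms4a3 differed by 2.75 (log2, SE 0.250, limma adjusted p = 5.9e-07), Prtn3 by 2.42 (SE 0.216, adjusted p = 4.7e-07) and Mpo by 2.37 (SE 0.262, adjusted p = 4.5e-06). Elane differed by 2.16 (SE 0.239, limma adjusted p = 4.5e-06) and Ctsg by 1.90 (SE 0.225, adjusted p = 8.8e-06). All 5 calls held under each alternative run.

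Genes of granules that form later were lower in stem cells throughout. Of 16 genes of the specific and gelatinase granules, which fill after the primary ones, limma called 16 lower in stem than in myeloid cells, with a median of -5.33 against 0.05 over all tested genes. The antimicrobial peptide gene Camp differed by -6.05 (SE 0.501, limma adjusted p = 8.6e-08). Of 12 mature neutrophil genes 12 were lower, and S100a8, a calprotectin subunit, differed by -4.40 (SE 0.644, limma adjusted p = 2.9e-05). Of 14 other primary granule and processing genes, 3 were higher and 8 lower. Prss57, a granule serine protease, was higher in stem cells by 0.49 (SE 0.199, limma adjusted p = 0.046). Cst7, the inhibitor cystatin F, was higher by 0.80 (SE 0.271, limma adjusted p = 0.019) and G6pc3, a phosphatase gene needed by neutrophils, by 1.33 (SE 0.107, adjusted p = 6.2e-08). Ctsc, which activates the granule proteases by removing their N-terminal dipeptide, was lower in stem cells by 2.33 (difference -2.33, SE 0.221, limma adjusted p = 3.5e-07), in the direction of its substrate Elane and opposite to its substrates Prtn3 and Ctsg. The lysozyme genes Lyz1 (-1.96) and Lyz2 (-3.20) were also lower in stem cells, as were the lysosomal enzyme genes Man2b1 (-1.43) and Arsb (-0.99), the protease inhibitor Serpinb1a (-0.80), the granule proteoglycan gene Srgn (-0.34) and Vps13b (-0.30), all called by limma. Cd63, Gusb and Ap3b1 were not called.

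Between 6 and 2 months, over the 16 wild-type and heterozygous arrays, limma called 0 of the 5 genes and 0% of all genes. Unadjusted, 773 genes had a p under 0.05, with Ctsg the only member among them. The fitted differences were 0.76 for Ctsg (SE 0.289, unadjusted p = 0.025, limma adjusted p = 0.72), 0.68 for Mpo (SE 0.324), 0.62 for Prtn3 (SE 0.305), 0.35 for Elane (SE 0.253) and 0.34 for Ms4a3 (SE 0.273). Those means covered unlike genotypes. On wild-type myeloid arrays the differences ran from -0.26 for Ms4a3 to 0.36 for Mpo, while on heterozygous myeloid arrays they ran from 1.89 for Prtn3 to 2.59 for Ctsg. Whether ageing differed by genotype was not tested for these genes.

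**Figure D2:**
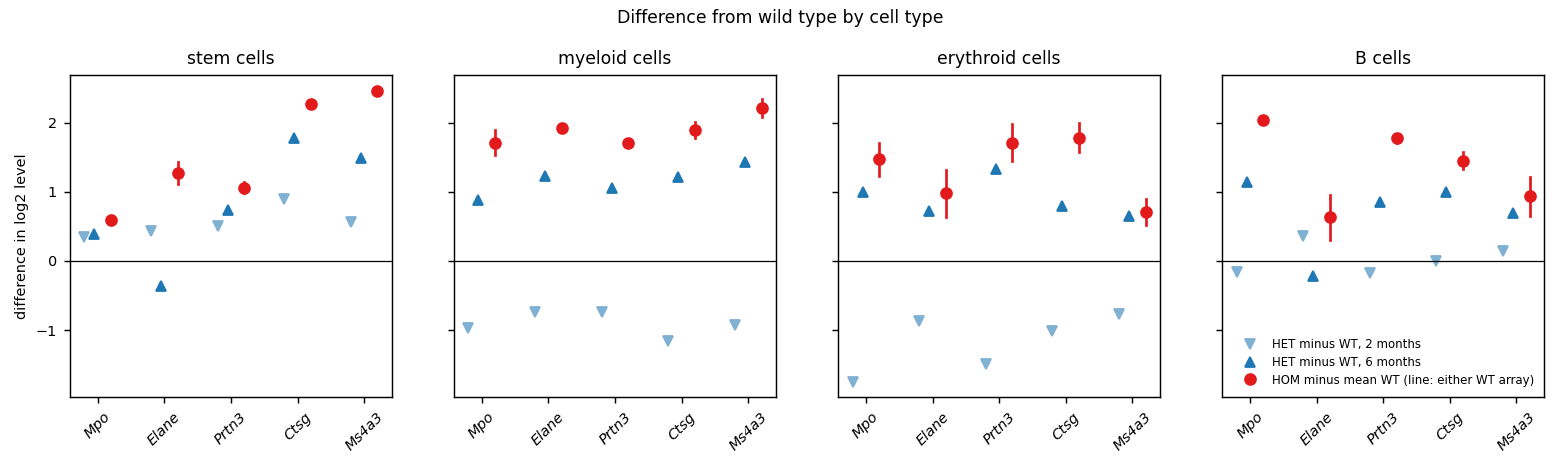
Difference in log2 level from wild type (vertical axis) for each gene, by sorted population. Circles are homozygous arrays minus the mean of both wild-type arrays, with a line to the difference from either; triangles are heterozygous minus wild-type arrays of the same age. Circles lie above 0 throughout, and the 2-month heterozygous triangles lie below 0 in myeloid and erythroid cells.

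Homozygous arrays exceeded the mean of the wild-type arrays for all 5 genes in every population. In myeloid cells the difference was 1.71 for Mpo, 1.92 for Elane, 1.71 for Prtn3, 1.90 for Ctsg and 2.21 for Ms4a3 (log2), or 3.27-fold to 4.64-fold. The 5 genes were close to each other there. The median over all tested genes was 0.01, and 95% of them lay between -0.94 and 0.81. Against either wild-type array alone the 5 differences stayed between 1.53 and 2.34.

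In stem cells the same difference spread widely among the genes. It was 0.60 for Mpo (1.51-fold), 1.06 for Prtn3 (2.09-fold) and 1.27 for Elane (2.42-fold). It reached 2.27 for Ctsg (4.84-fold) and 2.46 for Ms4a3 (5.49-fold). Mpo, the gene with the widest stem minus myeloid gap in wild type, thus had the smallest difference. The 95% range over all tested genes was -0.65 to 0.56. The 2 wild-type stem cell arrays were close for every member, with differences of 6 minus 2 months from -0.16 to 0.31.

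In erythroid cells the homozygous difference was 1.47 for Mpo, 0.98 for Elane, 1.71 for Prtn3, 1.79 for Ctsg and 0.71 for Ms4a3. This population was also the most variable over all genes, with 95% of them between -1.04 and 1.62. Ms4a3, Elane and Mpo thus lay inside that range, and Prtn3 and Ctsg above it. In B cells it was 2.04 for Mpo, 1.77 for Prtn3, 1.45 for Ctsg, 0.94 for Ms4a3 and 0.63 for Elane, with 95% of all genes between -0.49 and 0.90. Mpo stood 4.11-fold above wild type in a population where its wild-type levels were near the array-wide median.

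Over the 4 cell types together the fitted homozygous minus wild-type difference was 1.85 for Ctsg (SE 0.133) and 1.58 for Ms4a3 (SE 0.264). It was 1.56 for Prtn3 (SE 0.136), 1.45 for Mpo (SE 0.195) and 1.20 for Elane (SE 0.208). These SEs measure spread between arrays of populations that may share a mouse, and not spread between animals. The median of all tested genes was -0.0025, and limma called 0.171% of them higher and 0.171% lower. Within stem cells alone it called 0.00857% higher and 0.0428% lower, and within myeloid cells 0% higher and 0.00857% lower. For all 5 genes the homozygous array was the highest of the 5 in each population. That holds for 15.8% of all genes in B cells, 22.9% in myeloid cells, 18.5% in stem cells and 26.3% in erythroid cells, and for 0.428% in all 4. The genes were chosen with this contrast known, so nothing is read from these counts.

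Heterozygous arrays, compared with the same wild-type arrays as the homozygous ones, did not sit at a fixed place between the others. Over both ages and all cell types the heterozygous minus wild-type difference was 0.44 for Ctsg (SE 0.314), 0.41 for Ms4a3 (SE 0.267), 0.26 for Prtn3 (SE 0.289), 0.11 for Mpo (SE 0.302) and 0.07 for Elane (SE 0.220), in a comparison where limma called 0% of all genes higher and 0.00857% lower. In myeloid cells at 2 months it was -0.96 for Mpo, -0.73 for Elane, -0.74 for Prtn3, -1.15 for Ctsg and -0.93 for Ms4a3. At 6 months it was 0.89, 1.23, 1.05, 1.21 and 1.44 in the same order. The 2-month heterozygote was therefore the lowest myeloid array for 5 of 5 genes (14.4% of all tested genes have that order). The 6-month heterozygote was the second highest for 5 of 5 (16.4%). The members were chosen with the heterozygous differences known, so nothing is read from these counts. Erythroid cells also turned from lower to higher, from -1.49 at 2 months to 1.34 at 6 months for Prtn3 and from -1.02 to 0.79 for Ctsg. In B cells the 2-month differences were small, from -0.17 for Prtn3 to 0.36 for Elane, and at 6 months they ran from -0.21 for Elane to 1.15 for Mpo.

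Against the 6-month heterozygous arrays alone, the homozygous arrays were still higher for every gene in every population. In myeloid cells these differences ran from 0.57 for Ctsg to 0.91 for Ms4a3, and in stem cells from 0.25 for Mpo to 1.48 for Elane. They were smaller than the differences from wild type except for Elane in stem cells (1.48 against 1.27). In erythroid cells they ran from 0.25 for Ms4a3 to 1.20 for Ctsg, and in B cells from 0.32 for Ctsg to 0.92 for Mpo.

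**Figure D3:**
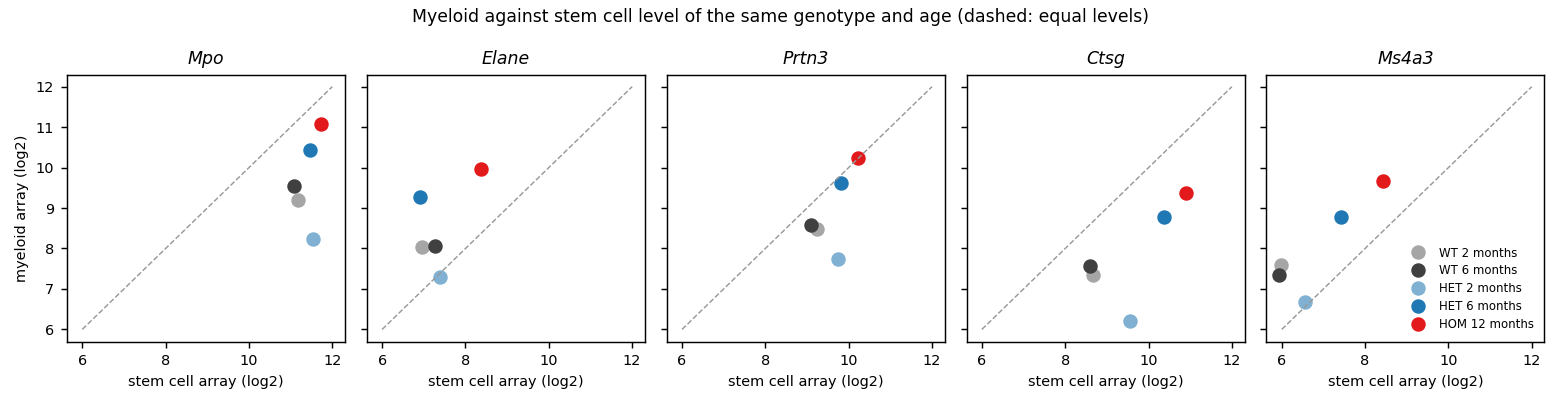
Level on the myeloid array (vertical axis, log2) against the stem cell array (horizontal axis, log2) of the same genotype and age, 1 point for each of 5 combinations. The homozygous point is at the top right for each gene, and the 2-month heterozygous point lies lowest although its stem cell level is above both wild-type points.

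Whether the stem cell level of a granule gene went with its myeloid level was asked over the 5 combinations of genotype and age, too few for a correlation. The homozygous sample had the highest stem cell and the highest myeloid level for 5 of 5 genes, an order held by 6.21% of all tested genes and one that the choice of the members favours, so no relation is read from it. In the 2-month heterozygote stem and myeloid levels differed from wild type in opposite directions for every gene. Its stem cells lay above both wild-type stem cell arrays by 0.35 for Mpo to 0.89 for Ctsg against the 2-month wild type, while its myeloid cells lay lowest of all. Stem minus myeloid was 3.30 for Mpo, 3.36 for Ctsg and 2.01 for Prtn3 in that combination, against 1.99, 1.32 and 0.77 in wild type at the same age. For Elane and Ms4a3, otherwise higher in myeloid cells, the populations met there, at 0.09 and -0.11. The members were chosen with the heterozygous differences known, so no relation is read from this pattern either.

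The 6-month heterozygote followed the homozygote for Prtn3, Ctsg and Ms4a3, with stem and myeloid levels both second highest. Mpo was second highest in its myeloid cells, while in its stem cells (11.47) it lay just under the 2-month heterozygote (11.53). Elane was second highest in its myeloid cells but lowest in its stem cells, 6.90 against 6.95 and 7.26 in wild type, a gap smaller than that between the wild-type arrays. All 3 mutant stem cell arrays exceeded both wild-type ones for Mpo, Prtn3, Ctsg and Ms4a3, an order found in 11.7% of all tested genes. The choice of the members favours this order as well, so nothing is read from it. The stem minus myeloid gap of Mpo narrowed from 1.99 and 1.53 in wild type to 0.64 in homozygotes, and that of Prtn3 from 0.77 and 0.51 to -0.01. For Ctsg it was 1.32 and 1.02 in wild type and 1.55 in homozygotes. Elane had gaps of -1.08 and -0.795 in wild type and -1.58 in homozygotes, and Ms4a3 of -1.60 and -1.40, and -1.26. These changes follow from genotype differences known when the members were chosen, so nothing is read from them.

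Agreement among the 5 genes is given as a description. Pearson's r between pairs of them over the 20 arrays ran from 0.697 to 0.981 with a median of 0.832, and from 0.748 to 0.983 after removing each population's mean. These are descriptions of arrays that share normalization and possibly mice. The members were chosen with their genotype differences on these arrays known, which favours such agreement, so nothing is read from it. Outside the members, the genes most like their mean over 20 arrays were Frrs1, a ferric reductase-like membrane protein (r = 0.916), the glycolytic enzyme gene Pgam1 (r = 0.915), the glutathione transferase gene Gstm1 (r = 0.912), Lbp, which encodes lipopolysaccharide-binding protein (r = 0.910), and S100a1, a calcium-binding protein gene (r = 0.905).

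Of the genes next to the members, most were dim. The peroxidase gene Lpo, adjacent to Mpo and too dim to be tested, differed by 0.68 in myeloid cells and by -0.11 in stem cells (homozygous minus wild type, log2), and Tspoap1 on the other side, likewise too dim, by 0.23 and 0.44. Around Elane and Prtn3, Med16 differed by 0.05 in myeloid and 0.09 in stem cells and Plppr3 by 0.52 and 0.02. Ms4a2 and Oosp2, beside Ms4a3, and Gzme, beside Ctsg, were too dim to be tested, with cell type means between 3.91 and 4.68. Mcpt8, a basophil protease gene and the nearest measured gene on the other side of Ctsg, was bright enough to be tested. On stem cell arrays it read 6.49 and 6.33 in wild type, 7.52 and 8.47 in heterozygotes and 9.07 in homozygotes, the same order as Ctsg. Its homozygous difference was 2.66 in stem cells, 1.78 in myeloid cells, 1.53 in erythroid cells and 0.11 in B cells, and 1.52 over the cell types (SE 0.294, limma adjusted p = 0.072).

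Other primary granule genes were described in the same contrast. Among the 14 other primary granule and processing genes, limma called 0 in homozygous minus wild-type cells, and 1 had an unadjusted p under 0.05, which 18.4% of all tested genes had in this contrast. Their median difference was 0.15 over the cell types, against -0.0025 over all tested genes, with 13 of 14 above 0. The members were picked for their differences, so their own median is not set against this. The largest were Serpinb1a, an inhibitor of the granule proteases (0.52, SE 0.236, limma adjusted p = 0.28), the granule membrane gene Cd63 (0.51, SE 0.297) and Ctsc (0.32, SE 0.162). The lysosomal sulfatase gene Arsb differed by 0.29 (SE 0.105, limma adjusted p = 0.20). Prss57 differed by 0.24, Man2b1 by 0.21, Lyz2 by 0.16, G6pc3 by 0.15, Cst7 by 0.14 and Gusb by 0.13. Srgn, Ap3b1 and Vps13b differed by 0.02, 0.01 and 0.02, and Lyz1 by -0.05. In stem cells Cst7 read 7.98 and 7.59 in wild type and 9.28 in homozygotes (1.49, SE 0.278, limma adjusted p = 0.17), and Prss57 differed by 0.77 in stem and 0.76 in myeloid cells.

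Of 16 specific and gelatinase granule genes, 0 were called by limma over the cell types (median 0.25, 14 of 16 above 0). Of them 2 had an unadjusted p under 0.05, against 18.4% of all tested genes. Within myeloid cells 14 of 16 were also above 0, with a median of 0.38, 0 called and 4 at an unadjusted p under 0.05, against 9.43% of all tested genes. Camp lay near the top of the scale on every myeloid array, between 12.86 and 13.29. Fcnb, which encodes ficolin B, read 9.12 and 8.49 in wild type, 8.14 and 9.37 in heterozygotes and 10.03 in homozygotes in myeloid cells, and Orm1, an acute phase protein gene, read 8.57 and 7.03, 7.99 and 8.66, and 9.44. For both genes, and for Olfm4, Anxa3 and Cyba, the homozygous array was highest and the 6-month heterozygous array second highest, as for the members. The rest of the list differed. For Camp, Cd177 and Chil3 the homozygous array was highest, but 2-month wild type was second. For Cybb the 6-month heterozygote was highest. For Ltf, Ngp, Lcn2, Mmp8, Mmp9, Hp and Itgam 2-month wild type was highest. Among all tested genes, 22.9% had the homozygous array highest in myeloid cells. Of 12 mature neutrophil genes limma called 0 over the cell types, with none at an unadjusted p under 0.05 (median -0.02). Within myeloid cells their median was -0.17, with 4 of 12 above 0. In myeloid cells Cxcr2, the chemokine receptor of mature neutrophils, read 11.75 and 11.31 in wild type and 11.73 on the 2-month heterozygous array, against 9.92 on the 6-month heterozygous and 10.61 on the homozygous array. Csf3r, the G-CSF receptor, was also lower on those 2 arrays, with 11.77, 11.40 and 11.53 against 9.54 and 9.998. Other genes of the list were not: the homozygous array was the highest of the 5 myeloid arrays for Ly6g (11.57), Retnlg (12.15), Mmp25 (8.68) and Padi4 (8.28). These single genes were chosen after their values were seen.

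Among 15 myeloid transcription factors limma called 0, and 2 had an unadjusted p under 0.05 (median 0.20 over the cell types). Of all tested genes 18.4% had such a p, the share for each list in this paragraph. Spi1, which encodes PU.1, differed by 0.59 over the cell types (SE 0.274, limma adjusted p = 0.28), by 0.11 in myeloid and by 0.30 in stem cells. Runx1 differed by 0.30 (SE 0.0935, limma adjusted p = 0.15), Myb by 0.68 (SE 0.367, adjusted p = 0.36) and Myc by -0.31 (SE 0.211, adjusted p = 0.46). Of 14 granulocyte and monocyte progenitor genes 0 were called and 5 had an unadjusted p under 0.05 (median 0.47), Plac8 differing by 0.19. Of 9 tested MS4A family genes 0 were called and 5 had an unadjusted p under 0.05. The B cell gene Ms4a1 differed by -1.32 and the monocyte gene Ms4a6c by 0.85, so relatives of Ms4a3 had values of both signs.

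**Figure D4:**
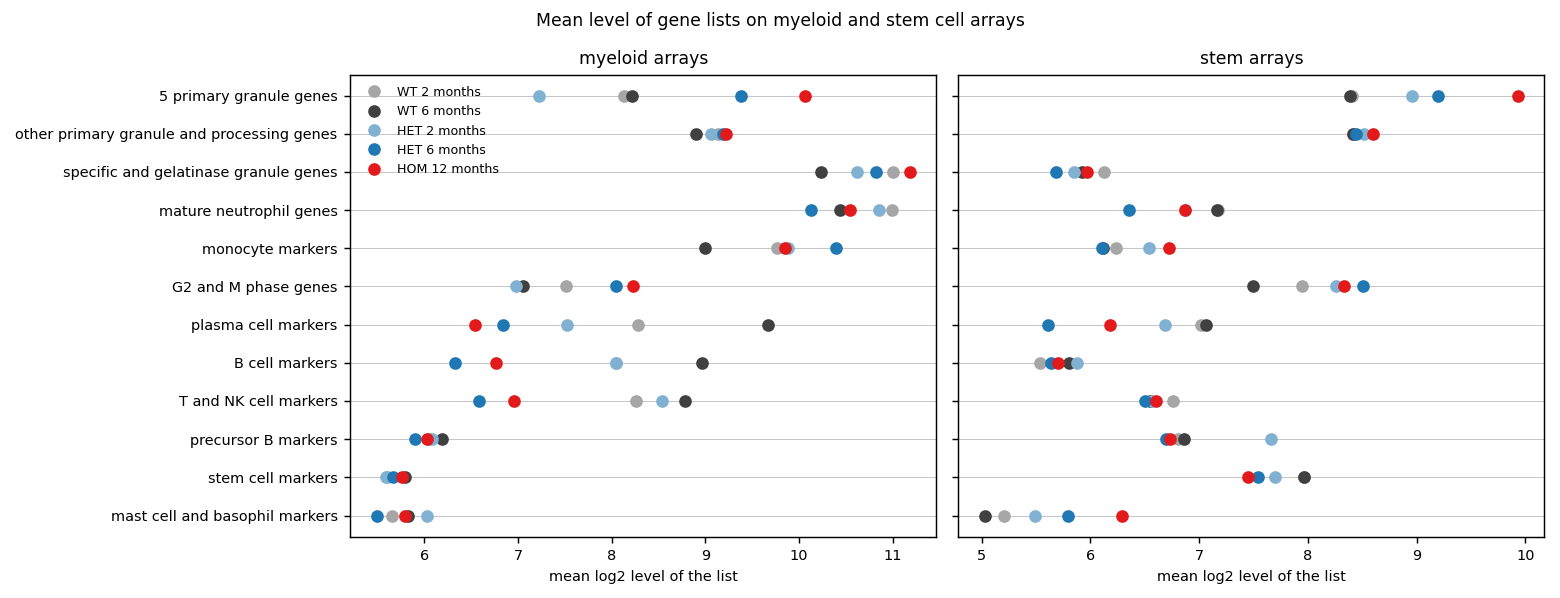
Mean log2 level (horizontal axis) of the 5 granule genes and of other gene lists on the 5 myeloid and 5 stem cell arrays. Points are arrays, coloured by genotype and age. In myeloid cells the 6-month heterozygous and homozygous arrays are highest for the 5 granule genes and lowest for B, plasma and T and NK cell markers.

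The myeloid arrays also differed in RNA of other cell types. In bulk samples fewer cells of a type and less RNA per cell cannot be told apart. On these arrays the 5 granule genes averaged 8.13 and 8.22 in wild type, 7.22 and 9.38 in heterozygotes and 10.06 in homozygotes. The mean of 9 B cell markers was 8.05 and 8.96, 8.05 and 6.33, and 6.76, and that of 8 plasma cell markers 8.28 and 9.67, 7.52 and 6.84, and 6.54. T and NK cell markers (9 genes) averaged 8.26 and 8.78, 8.54 and 6.59, and 6.96. The 2 myeloid arrays with the highest granule genes were thus the lowest for all 3 lists, and 9 of 9, 8 of 8 and 9 of 9 markers were lower in homozygous than in wild-type myeloid cells, with 0 called by limma and 0, 7 and 2 at an unadjusted p under 0.05, which 9.43% of all tested genes had. The 2-month heterozygote, lowest for the granule genes, matched 2-month wild type for B cell markers (8.05 on both). Monocyte markers (11 genes) averaged 9.77 and 9.0, 9.88 and 10.39, and 9.85, and on erythroid arrays 8.36 and 8.25, 8.49 and 9.42, and 10.21. On erythroid arrays the homozygous and 6-month heterozygous samples were thus the highest for monocyte markers too. Over the cell types 11 of 11 had a homozygous difference above 0 (median 0.76, 0 called by limma). Of them 8 had an unadjusted p under 0.05, against 18.4% of all tested genes over the cell types. The part of other cells in the granule gene differences was not tested.

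G2 and M phase genes, which mark dividing cells, had a homozygous minus wild-type difference above 0 for 18 of 18 genes (median 0.68), with 0 called by limma and 9 at an unadjusted p under 0.05, the share over all tested genes being 18.4%. On myeloid arrays they averaged 7.51 and 7.06 in wild type, 6.98 and 8.04 in heterozygotes and 8.22 in homozygotes, nearly the order of the granule genes. On stem cell arrays they averaged 7.95 and 7.50, 8.26 and 8.51, and 8.34. All 3 mutant stem cell arrays thus lay above both wild-type ones, as for Mpo, Prtn3, Ctsg and Ms4a3. On B cell arrays they averaged 7.24 and 6.46, 7.60 and 8.80, and 8.50. On erythroid arrays they averaged 8.20 and 7.37, 6.96 and 8.89, and 7.30, where the homozygous array was not high. Precursor B markers on B cell arrays averaged 6.16, 6.21 and 6.36 against 10.04 and 8.90 in heterozygotes at 6 months and homozygotes, the same 2 arrays on which Mpo, Prtn3 and Ctsg were highest among B cells. Erythroid markers (7 genes) on myeloid arrays averaged 6.14 and 5.97, 5.79 and 8.22, and 7.11, also highest on the arrays with the most granule RNA. The part of any of these in the granule gene differences was not tested.

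Stem cell arrays differed in another way. Plasma cell markers averaged 7.02 and 7.06 in wild type, 6.69 and 5.61 in heterozygotes and 6.18 in homozygotes, while B cell markers stayed between 5.54 and 5.88 on all 5. Mature neutrophil genes averaged 7.17 and 7.16 in wild type, 6.87 and 6.36 in heterozygotes and 6.87 in homozygotes. The calprotectin genes made up most of that drop, S100a8 reading 10.21 and 10.10, 8.68 and 5.29, and 8.58, and S100a9 reading 9.94 and 9.76, 8.14 and 5.67, and 7.57. Over the 12 genes the homozygous difference in stem cells had a median of -0.05, with 5 of 12 above 0. Mast cell and basophil markers (10 genes) averaged 5.20 and 5.03 in wild type, 5.49 and 5.79 in heterozygotes and 6.29 in homozygotes. The mast cell protease gene Cpa3 read 5.16 and 4.84 in wild type, 5.99 and 6.70 in heterozygotes and 7.81 in homozygotes. That is the order of Ctsg and Ms4a3 on the same arrays. Its homozygous minus wild-type difference in stem cells was 2.81. Both wild-type levels lay below 5.92, the brightness filter. Cpa3 passed that filter through its stem cell mean, which the homozygous array raised. The limma call of Cpa3 is therefore not read as support. Of the 10 markers 5 were tested. The homozygous arm of the contrast within stem cells is 1 array at an age of its own. That contrast borrows its spread from the gaps between ages, so the p-values within stem cells compare these arrays and not animals.

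Most stem cell markers were lower in the stem cells of homozygotes than in those of wild type. Of 14 tested, 12 were lower in homozygous stem cells and limma called 2 of them. Hlf, a transcription factor gene of stem cells, read 9.55 and 9.80 in wild type, 8.98 and 8.55 in heterozygotes and 8.22 in homozygotes (-1.46, SE 0.197, limma adjusted p = 0.028). Mecom, likewise a stem cell regulator, read 7.39 and 7.59, 6.69 and 6.56, and 6.20 (-1.29, SE 0.147, limma adjusted p = 0.0069). Across the 5 stem cell arrays Prtn3, Ctsg and Ms4a3 ran in the reverse order of Hlf and Mecom. Mpo and Elane did not. Mpo was higher in the 2-month than in the 6-month heterozygote, and Elane was lowest in the 6-month heterozygote. The members were chosen with their differences known, and Hlf and Mecom are named for their calls in this contrast. Nothing is therefore read from these orders. The Hlf call was lost in 12 of the runs that left out an array, with a limma adjusted p of up to 0.28 without the 6-month wild-type stem cell array. The Mecom call was lost without that array (limma adjusted p = 0.083) and with trended, robust variances (adjusted p = 0.057). Over all cell types the only list gene called in homozygous minus wild-type cells was Cdk6, a cell cycle kinase gene. Its difference was 0.75 (SE 0.0851, limma adjusted p = 0.0068), in a contrast where 0.171% of all tested genes were called higher. The Cdk6 call was lost without the homozygous myeloid array (limma adjusted p = 0.064) or without the erythroid arrays (adjusted p = 0.051). Cdk6 is 1 of 9 progenitor and multilineage markers, most of which went the other way. Of the 9, 4 had a difference above 0, and their median was -0.35.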

How the data were processed

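Total RNA of FACS-sorted cells was amplified with a NuGEN kit and hybridised to 20 arrays, per the labels' protocols. The authors deposited log2 expression values for 35556 probe sets, made with RMA and the affy package per the submitters' processing notes, with versions not given in the sources used here. Since RMA makes the arrays' distributions alike, differences in total RNA are lost. Array medians lay between 5.86 and 6.02. The number of arrays limits the precision.

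A gene was represented by its probe set with 1 symbol in the platform annotation and the highest mean over all arrays. Genes whose mean in at least 1 cell type exceeded 5.92, the median of all values, were tested (11670). Two-sided tests used limma 3.58.1 (R 4.3.3; lmFit, then eBayes) with Benjamini-Hochberg adjustment over all tested genes, and called means an adjusted p under 0.05. They were tested on simulated data first. There the smaller of the simulated differences were recovered far less often within stem cells or within myeloid cells than in the other contrasts. A lack of calls within those populations therefore says little. The cell type contrast used 20 arrays, the age contrast 16, and genotype contrasts had cell type, or cell type and age, as a block. Contrasts within 1 cell type took their spread from the gaps between ages.

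The members and gene lists were chosen with earlier results of these data known. The genes named are the members, Xist, all other primary granule and processing genes tested, up to 4 genes of each other list with the highest mean, the nearest annotated neighbours with a value, the 5 genes most correlated with the members' mean, and list genes called in homozygous minus wild type over cell types or in stem cells. Marker genes named outside this rule (Cxcr2, Csf3r, Cd34, Ly6g, Retnlg, Mmp25, Padi4, Fcnb, Orm1, Olfm4 and Anxa3) were chosen after their values were seen. The remaining specific and gelatinase granule genes were named beside them to cover that list. Alternatives changed the filter, probe set summary, centring, normalization within cell types, variance model, arrays included, reference arrays and a random block for age and genotype.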

Additional observations from a re-analysis of the deposited data

How the results depend on the processing

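Homozygous minus wild-type differences of the 5 granule genes kept their sign in 100 of 100 values over gene, cell type and setting. Heterozygous differences changed sign in 23 of 140. Averaging probe sets left the members' values unchanged, so that setting could not alter a sign in either count. The members were chosen with these differences known, so nothing is read from the counts. Against heterozygous in place of wild-type arrays, the members' median homozygous difference was 0.95 in B cells, 1.75 in myeloid cells, 0.94 in stem cells and 1.79 in erythroid cells, the last above the 1.47 against wild type. Against the 6-month heterozygous array alone, a reference added after seeing the data, it was 0.53 in B cells, 0.64 in myeloid cells, 0.53 in stem cells and 0.65 in erythroid cells. Without a wild-type array it lay between 1.78 and 1.93 in myeloid cells. Stem minus myeloid called 4 or 5 of 5 members when a combination was left out. With a random block for the age and genotype combination, 1 granule or neutrophil list gene was called in homozygous minus wild type, against 0. Leaving out single arrays called 0 to 1 such gene within stem cells and 0 to 1 within myeloid cells. Counts over all genes moved far more. In homozygous minus wild type 40 became 562 with the random block, 12 with arrays centred on their medians and 13 without erythroid arrays, and 6 to 46 with 1 array left out. In myeloid cells 1 became 0 to 30 with 1 array left out, 2 with centring or without erythroid arrays and 3 with trended, robust variances, and in stem cells 6 became 3 without the 6-month wild-type array. Heterozygous minus wild type moved from 1 to between 0 and 2 genes over its alternatives, and 6 minus 2 months from 0 to as many as 2 genes. The causes were not tested. Fits were blocked by cell type, or by age and genotype, and no block on replicate numbers was run because the labels give none. With 1 array per combination, and 12-month animals only among homozygotes, neither the animal's own variation nor age can be separated from genotype.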

Other observations

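Once each population's mean was removed, a scale added after seeing the data, the 5 genes most like the mean of the 5 granule genes over 20 arrays were Etfb (r = 0.899), an electron transfer flavoprotein subunit, the complex I gene Ndufs8 (r = 0.872), the isocitrate dehydrogenase gene Idh3g (r = 0.863), the cytochrome oxidase gene Cox5a (r = 0.860) and Pgk1 (r = 0.860), a glycolytic kinase. The next 5 were Trmt112, Ppia, Ndufv3, Hprt and Churc1 (r from 0.842 to 0.855). On myeloid arrays Etfb read 8.78 and 8.75 in wild type, 8.63 and 9.49 in heterozygotes and 9.46 in homozygotes. On the same scale r was 0.763 for Cdk6, 0.701 for Mcpt8, 0.229 for the specific granule gene Camp, -0.363 for Cxcr2 and -0.458 for Csf3r. None of these was tested, and all arrays share their normalization.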
